A study of Homo sapiens with 24 samples.

Results

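MRM1 knock-out cells were set against their parental line in the libraries made with 500 µM dNTPs. These 6 libraries, 3 per line, were taken from 24 in the whole series by the line, dNTP concentration and replicate in their titles and column names. Another 6 libraries made at 500 µM, from MRM2 and MRM3 knock-out cells, shared the edgeR and limma fits. They helped set the spread and the filters but were not compared. Total RNA of mitochondria-enriched fractions was profiled from the HEK293T Flp-In T-REx line, which derives from human embryonic kidney and carries an insertion site for transgenes. The MRM1 knock-out (MRM1 KO) line has this background and was provided to the study by another person, and whether it is 1 clone was not stated in the sources used here. Each replicate was a separate culture plate, and p-values therefore cover only how plates of the same line vary. The growth protocol names extra serum and uridine for the knock-out cells made in the study, but the medium of these plates was not stated per line. Line origin and medium therefore cannot be told apart from the knock-out. The genotype field disagrees with the title in 18 of the 24 samples, among them all 3 parental libraries used here.

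MRM1 is an enzyme that adds a methyl group to the 2′ oxygen of a ribose in the 16S mt-rRNA, the RNA core of the large mitochondrial ribosomal subunit. Its residue, G2815, lies in the P-loop of the peptidyl transferase centre, where the end of the peptidyl-tRNA is held, and the counterpart enzyme of Escherichia coli is RlmB. MRM2 and MRM3 methylate U3039 and G3040 in the neighbouring A-loop. A 2′-O-methyl group blocks the alkaline attack that breaks the RNA chain after that nucleotide, so a methylated residue is seen as a gap in the read ends.

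The windows around G2815, which is set in capitals, and around U3039, the MRM2 residue used for comparison and also in capitals, were read from the mitochondrial chromosome (GRCh38, plus strand), within the single exon of MT-RNR2, at chrM:2805-2825 and chrM:3029-3049.
G2815: auuucgguugGggcgaccucg
U3039: aagguucguuUguucaacgau

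The MRM1 KO libraries held 409505, 491233 and 250693 reads on the 37 mitochondrial transcripts, against 807322, 604562 and 613013 reads in the parental libraries. All 3 MRM1 KO libraries were shallower. Since no nuclear sequence was included in the alignment, the transcript of MRM1, a nuclear gene, could not be measured. G2815, the MRM1 residue, served as a check of the MRM1 KO label alone. It does not check whether the parental libraries are set apart from the MRM2 and MRM3 knock-outs, and it is also the main result below.

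Cleavage at G2815 rose in MRM1 KO cells. In the MRM1 KO libraries 117, 119 and 61 fragments had their 3′ end at G2815, against 30, 33 and 20 in the deeper parental libraries. As a share of all 3′ ends within 10 nucleotides, that was 5.36%, 4.62% and 4.63% in MRM1 KO and 0.781%, 1.26% and 0.786% in parental cells. The groups were far apart, and in the MRM1 KO libraries G2815 no longer formed a gap among its neighbours.

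**Figure D1:**
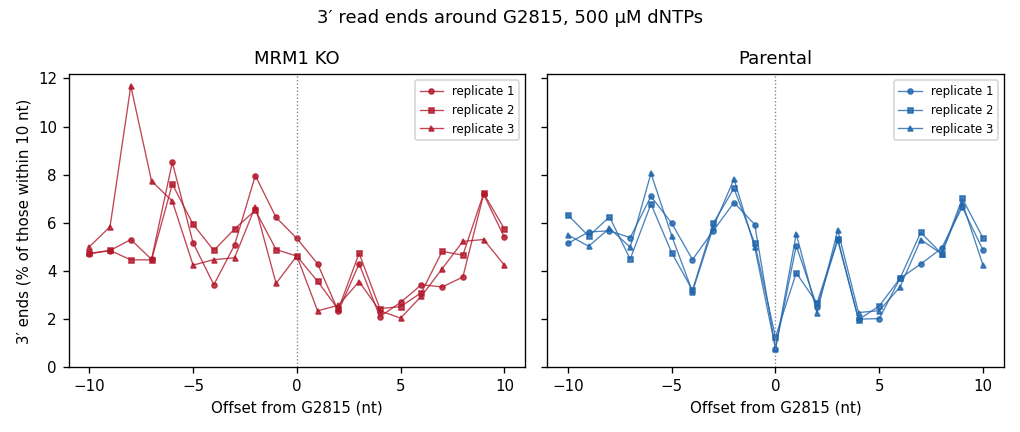
3′ read ends at each nucleotide from 10 before to 10 after G2815, as a percentage of all 3′ ends in that span, with 1 line per replicate. MRM1 KO replicates held 4.62% to 5.36% at offset 0, and parental replicates 0.781% to 1.26%.

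The cleavage protection score expresses such a gap by setting the 3′ ends at a position against those of the 6 nucleotides on each side. The SD of each side is taken off its mean first, the ends at the position itself and an added 1 enter the divisor, and values below 0 are set to 0, so the score is not a plain share of the flanking ends. G2815 scored 0 in all 3 MRM1 KO libraries, against 0.632, 0.418 and 0.578 in the parental libraries. The score fell by 0.543 (SE 0.078, 95% interval -0.708 to -0.377), with a Benjamini-Hochberg adjusted p of 0.00181 by limma. Because scores are cut at 0, the MRM1 KO values have no spread, and with values below 0 kept the score fell by 0.747 (adjusted p by limma 2.7e-05).

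G2815 was the only call among 641 tested positions (0.156%), of which 247 lay in the 12S and 393 in the 16S mt-rRNA. The other 1 lay in MT-TE, so no mRNA position was tested by this score. All 37 transcripts together have 15416 positions. Before adjustment 20 positions had a limma p below 0.05 (3.12%), and the second smallest adjusted p was 0.254. MRM1 KO and parental libraries did not overlap at 33 positions with lower scores in MRM1 KO (5.15%) and at 16 with higher scores (2.5%). The median score was 0.0408 in MRM1 KO and 0.0414 in parental cells, and the mean scores of the lines differed by less than 0.1 at 618 of the 641 positions. Apart from G2815, the differences in mean score ran from -0.17 to 0.18, the upper limit being A1438 of the 12S mt-rRNA. Scores above 0.5 in every MRM1 KO library were found at 17 positions, all of which were also above 0.5 in every parental library, where there were 18 in all. G2815 was not among the 18, since it scored 0.418 in parental replicate 2. Above 0.5 in every parental and in no MRM1 KO library were 0 positions. A1438, A750 and A2706 are among these 17 and were chosen after their values were seen. Whether the cells carry the reference base at these 3 positions was not tested, so their scores may not measure protection.

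**Figure D2:**
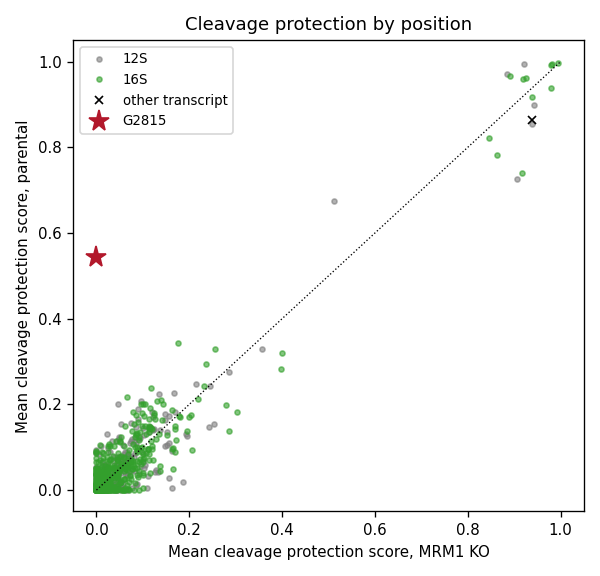
Mean cleavage protection score (no unit, n = 3 per line) of the 641 tested positions, MRM1 KO on the horizontal and parental on the vertical axis, with the dotted line marking equal scores. G2815 (star) stood at 0 in MRM1 KO and 0.543 in parental cells, while 618 positions differed by less than 0.1.

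No difference was called at the residues of MRM2 and MRM3. U3039 scored 0.238, 0.244 and 0.283 in MRM1 KO, against 0.36, 0.256 and 0.372 in parental libraries. These values overlapped, and the difference was -0.07 (95% interval -0.19 to 0.04, adjusted p by limma 1). G3040, the MRM3 residue, scored 0.888, 0.821 and 0.829 in MRM1 KO, against 0.887, 0.78 and 0.799 in parental libraries. Here the groups also overlapped, with a difference of 0.02 (95% interval -0.08 to 0.13, adjusted p by limma 1).

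The 5′ ends gave a second reading of the same cleavage, since the break after G2815 leaves the next nucleotide at the start of a fragment. The share of covering reads that began there was 0.655%, 0.623% and 0.594% in MRM1 KO, against 0.178%, 0.118% and 0.11% in parental libraries. Those shares rest on 126, 145 and 69 starting reads of 19231, 23263 and 11607 in MRM1 KO, and on 58, 30 and 31 of 32618, 25475 and 28067 in parental cells. Every MRM1 KO share was above every parental share. On the log2 scale, with 1 added to starts and coverage, the difference was 2.21 (SE 0.31, 95% interval 1.54 to 2.89). In the test over all 14090 positions it missed the threshold, with an adjusted p by limma of 0.0594.

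That test made 1 call (0.0071%), C9873 in MT-CO3, the mRNA of a cytochrome c oxidase subunit. It rests on 1, 2 and 1 starting reads of 1119, 1555 and 890 in MRM1 KO, against 0, 0 and 0 of 2796, 2318 and 2336 in parental libraries. Its log2 difference of 2.29 (SE 0.30, adjusted p by limma 0.0483) therefore depends on 4 reads and on the 1 added to each count. With edgeR on the same reads it was not called (adjusted p by edgeR 0.594). The median coverage of the tested positions was 342 to 643 reads in MRM1 KO, against 827 to 1100 in parental libraries. At the 2881 positions with a mean below 1 starting read, the median difference was 0.66 and 26.7% of positions had an unadjusted p below 0.05. At the 2472 positions with 30 or more it was -0.16, and 1.09% had such a p. Over all 14090 positions 1443 had such a p (10.2%).

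With only the 5079 positions that had at least 10 starting reads in at least 3 of the 12 libraries, G2815 was the single call (0.0197%, adjusted p by limma 0.0054). This filter was chosen after the values of G2815 and C9873 had been seen, and it does not replace the test above, in which G2815 missed the threshold.

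The other modified residues of the mt-rRNAs in the list were examined by the same measures, and none was called, but U1076, C1486, C1488 and A1583 scored 0 in every MRM1 KO and parental library and were not among the tested scores. A2617 of the 16S mt-rRNA carries 1-methyladenosine, made by TRMT61B, which stops reverse transcriptase. Of the reads covering the next nucleotide, 51.0%, 44.4% and 38.9% began there in MRM1 KO, against 44.5%, 36.5% and 46.1% in parental libraries. The groups overlapped, and the log2 difference was 0.08 (95% interval -0.19 to 0.35, adjusted p by limma 0.884). C1486 of the 12S mt-rRNA, the N4-methylcytidine of METTL15, had 0.0779%, 0.0944% and 0.0946% in MRM1 KO, against 0.164%, 0.154% and 0.129% in parental libraries. Those groups did not overlap, but the log2 difference of -0.67 (SE 0.35) had an adjusted p by limma of 0.546. U3067, a pseudouridine site of RPUSD4, scored 0.0738, 0.053 and 0.0242 in MRM1 KO, against 0.113, 0.138 and 0.0953 in parental libraries, and 0.301%, 0.355% and 0.342% of covering reads began after it in MRM1 KO, against 0.263%, 0.284% and 0.275% in parental libraries. The groups overlapped in neither measure, but the score difference of -0.06 and the log2 difference of 0.28 had adjusted p by limma of 1 and 0.811. At U1076, the 5-methyluridine of TRMT2B, at C1488, the 5-methylcytidine of NSUN4, and at A1583 and A1584, the dimethyladenosines of TFB1M, the adjusted p by limma for the starting reads was 0.746 or higher.

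Residue 9 of many mitochondrial tRNAs carries 1-methyladenosine or 1-methylguanosine, placed by a complex with TRMT10C, and it also stops reverse transcriptase. Of the 22 mt-tRNAs, 19 have A or G there, and more than 50% of covering reads began at the next nucleotide in 11 of them in parental cells. The share was 98.9%, 95.3% and 100% for MT-TI in MRM1 KO, against 98.2%, 97.5% and 98.6% in parental libraries, at a coverage as low as 42 reads. For MT-TY it was 87.3%, 91.0% and 92.9% in MRM1 KO, against 79.6%, 85.1% and 82.9% in parental libraries. MT-TY was higher in every MRM1 KO library but fell below the coverage of 50 reads needed for the test, as did MT-TI.

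For MT-TL1, the leucine tRNA next to the 16S mt-rRNA, the share was 81.3%, 81.2% and 81.1% in MRM1 KO, against 79.7%, 83.4% and 79.7% in parental libraries. For MT-TK it was 89.0%, 80.4% and 83.9% in MRM1 KO, against 88.1%, 75.4% and 78.8% in parental libraries. Both pairs of groups overlapped. None of the 11 residues with a coverage of at least 50 in all 12 libraries of the fit was called. Their lowest adjusted p by limma was 0.519, and their log2 differences ran from -0.29 to 0.11. MT-TD, MT-TW and MT-TG had at least 54 reads in each of the 6 compared libraries but were not tested under this rule.

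**Figure D3:**
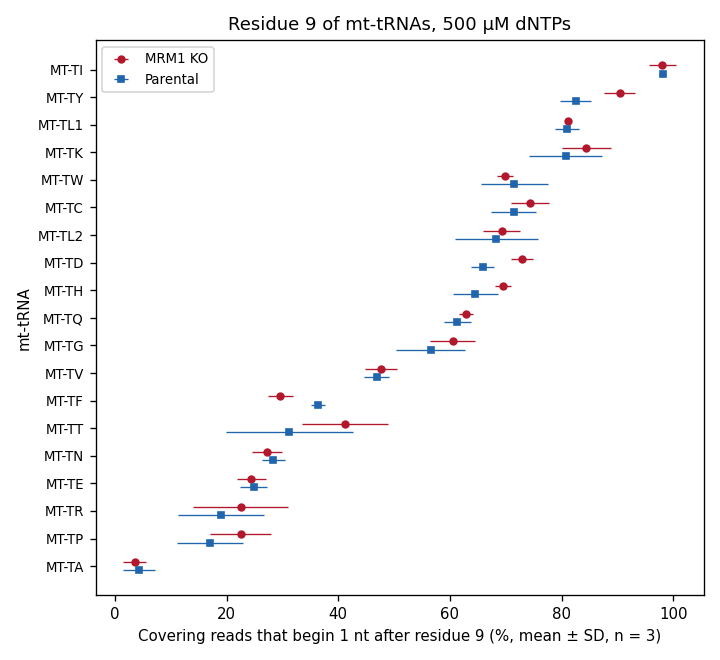
Percentage of covering reads that begin 1 nucleotide after residue 9 of the 19 mt-tRNAs with A or G there (mean and SD, n = 3), MRM1 KO above parental in each pair. MT-TI stood near 98% in both lines, and none of the 11 tested residues was called.

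Reads per transcript were expressed as RPM, reads scaled to a library total of 1000000. No transcript was called by its reads (0 of 37, 0%). Before adjustment 2 transcripts had an edgeR p below 0.05 (5.41%) and DESeq2 gave 4 such p and no call. The lowest adjusted p by edgeR's quasi-likelihood test was 0.431. RPM did not overlap between the lines for 9 transcripts higher in MRM1 KO (24.3%) and for 6 lower (16.2%). As a share of its own library, RPM does not measure the amount of RNA per cell.

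The 12S mt-rRNA (MT-RNR1), the core of the small subunit, took 325964, 332374 and 349615 RPM in MRM1 KO, against 365033, 364350 and 363945 in parental libraries. The 16S mt-rRNA (MT-RNR2) took 450703, 459613 and 453507 in MRM1 KO, against 422850, 434827 and 426789 in parental libraries. Neither pair of groups overlapped, the 12S being lower and the 16S higher in MRM1 KO. Scaled by TMM, which assumes that most transcripts keep their level, the log2 difference was -0.36 (SE 0.21) for the 12S and -0.16 (SE 0.21) for the 16S, with adjusted p by edgeR of 0.431 and 0.825. Scaled by total reads they were -0.12 and 0.09, so the direction of the 16S depends on the scaling. The median over the 37 transcripts was -0.08 under TMM and 0.19 under total reads.

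The 13 annotated mRNAs encode subunits of the respiratory chain and of ATP synthase. MT-ATP8 with MT-ATP6, and MT-ND4L with MT-ND4, each lie on a shared bicistronic mRNA but are counted here as separate mRNAs. The median log2 difference of the 13 was -0.50 under TMM, beside -0.08 over all 37 transcripts, and -0.27 under total reads, beside 0.19. In RPM over all 37 transcripts, 16.2% lay below and 24.3% above the parental values in every MRM1 KO library. The 7 mRNAs of complex I had a median of -0.50 under TMM and -0.27 under total reads, with 3 below and 1 above in this way. MT-ND4 among them had 10319 ± 1634 RPM in MRM1 KO and 12429 ± 873 in parental cells (SD, n = 3 each). The 3 mRNAs of complex IV, cytochrome c oxidase, had a median of -0.46 under TMM and -0.22 under total reads, with 2 below, and MT-CO1 had 36929 ± 4191 RPM in MRM1 KO and 44482 ± 2065 in parental cells (SD, n = 3 each). MT-CYB of complex III and the 2 mRNAs of complex V stood at -0.55 and at a median of -0.35 under TMM, and at -0.31 and -0.12 under total reads, with overlapping values. Together the mRNAs made up 9.25%, 10.8% and 11.9% of the reads in MRM1 KO, against 12.7%, 13.1% and 11.997% in parental libraries. These shares did not overlap, by a margin of less than 0.1 percentage points between the nearest libraries, and the exact two-sided permutation p was 0.1, the smallest that 3 against 3 allows. In the 2 µM libraries of the same RNA the shares overlapped, at 8.83%, 8.70% and 12.5% in MRM1 KO, against 13.3%, 12.6% and 9.999% in parental libraries (exact two-sided permutation p = 0.2).

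The 22 tRNAs had a median log2 difference of 0.04 under TMM and 0.31 under total reads. In RPM, 7 of the 22 lay above and 0 below the parental values in every MRM1 KO library, beside 24.3% above and 16.2% below over all transcripts. The 14 tRNAs on the plus strand had a median of 0.04 under TMM and 0.31 under total reads, and the 8 on the minus strand 0.05 and 0.32. The 3 that border the mt-rRNAs, MT-TF, MT-TV and MT-TL1, had a median of 0.11 under TMM and 0.39 under total reads. MT-TV had 12639 ± 1363 RPM in MRM1 KO and 9329 ± 1371 in parental cells (SD, n = 3 each), without overlap. Its log2 difference under TMM was 0.19 (SE 0.32, adjusted p by edgeR 0.86). MT-TE, on the minus strand, had 23150 ± 7608 RPM in MRM1 KO and 19351 ± 4018 in parental cells (SD, n = 3 each). Those groups overlapped, and the log2 difference under TMM was -0.02 (SE 0.31). No list held a called transcript.

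**Figure D4:**
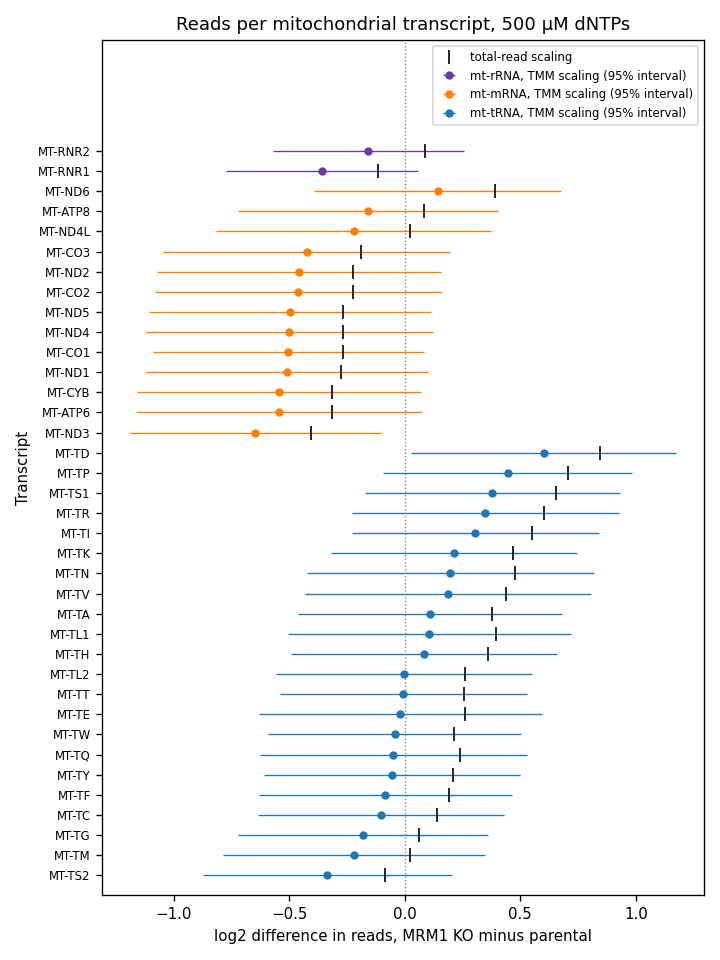
Log2 difference in reads (MRM1 KO minus parental) of the 37 transcripts with its 95% interval under TMM scaling, grouped into mt-rRNAs, mRNAs and tRNAs, with a vertical tick for scaling by total reads. The mRNAs had a median of -0.50 under TMM and -0.27 under total reads, the tRNAs of 0.04 and 0.31, and no transcript passed the threshold.

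The ratio of 16S to 12S reads needs no scaling between libraries. It was 1.383, 1.383 and 1.297 in MRM1 KO, against 1.158, 1.193 and 1.173 in parental libraries. All 3 MRM1 KO ratios were higher, by 0.179 on average, and the exact two-sided permutation p was 0.1, the smallest that 3 against 3 allows. In the 2 µM libraries of the same RNA the ratio was 1.564, 1.781 and 1.619 in MRM1 KO, against 1.454, 1.479 and 1.432 in parental libraries, again without overlap. The ratio was noticed in these data before it was computed for this comparison. In the MRM2 KO libraries made at 500 µM it was 1.343 to 1.406, so a ratio above the parental range was not particular to MRM1 KO.

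Fragments of the mt-rRNAs averaged 155, 144 and 144 nucleotides in MRM1 KO, against 131, 130 and 149 in parental libraries. Parental replicate 3 lay among the MRM1 KO libraries, and the exact two-sided permutation p was 0.3. Over all transcripts the mean was 141, 134 and 136 nucleotides in MRM1 KO, against 124, 123 and 140 in parental libraries (exact two-sided permutation p = 0.3), and over the mRNAs 143, 134 and 135 in MRM1 KO, against 123, 121 and 138 in parental libraries (exact two-sided permutation p = 0.3). Without parental replicate 3 the difference over all transcripts was 13.8 nucleotides in place of 8.32.

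**Figure D5:**
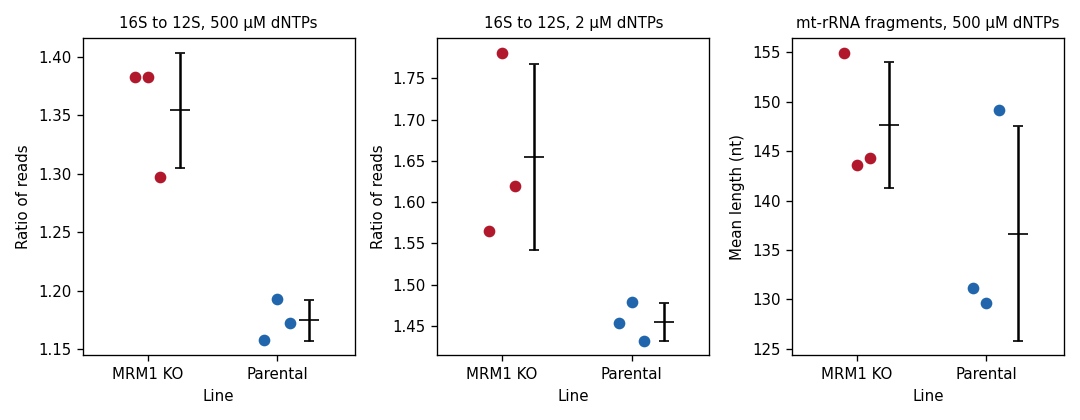
Ratio of 16S to 12S reads at 500 µM and at 2 µM dNTPs and mean length of mt-rRNA fragments in nucleotides, MRM1 KO left of parental, with 1 point per library and the mean with its SD (n = 3) beside it. The ratios did not overlap at either concentration, while the fragment lengths did.

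Reads were spread along the transcripts without a called difference. Of 267 windows of 50 nucleotides in the mt-rRNAs and mRNAs, 0 were called by edgeR (0%), 23 had an unadjusted p below 0.05 (8.61%), and the lowest adjusted p was 0.416. The 31 windows of the 16S mt-rRNA, among them that of G2815, had log2 differences from -0.20 to 0.42.

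Annotated transcript ends also gave no call among 70 tested termini (0%), of which 3 had an unadjusted p by edgeR below 0.05 (4.29%). They include the starts of MT-ATP6 and MT-ND4, which lie inside bicistronic mRNAs and are not natural RNA ends. The median share of tRNA reads whose 3′ end was the last nucleotide was 93.1%, 90.5% and 90.1% in MRM1 KO, against 83.5%, 82.5% and 89.9% in parental libraries. Every MRM1 KO library was higher, but parental replicate 3, whose fragments were as long as those of MRM1 KO, came close to the nearest. For the mRNAs the median share of reads that began at the first nucleotide was 20.3%, 15.4% and 14.1% in MRM1 KO, against 9.06%, 8.57% and 15.8% in parental libraries. These groups overlapped through the same parental replicate, and the part of fragment length in these shares was not tested. Without parental replicate 3 the termini with an unadjusted p by edgeR below 0.05 numbered 28, with 0 calls and a lowest adjusted p of 0.0596.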

How the data were processed

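Read ends and coverage per transcript position were deposited as counts. Per the submitters' processing notes the authors aligned with STAR 2.5.3a to GRCh38.p13. The deposited cleavage protection score and stop ratio are fractions computed by the authors from these counts; 36703 of 36703 scores and 184548 of 184548 ratios were recovered within 1e-09. Coverage followed at all 15416 positions only if the columns headed as read starts hold 3′ ends. The 10 columns of the authors' comparisons hold p-values, which were deposited per position and not used, nor were the 12 stop-ratio columns at 2 µM.

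Reads per transcript, windows and termini were tested with edgeR 4.0.16 (quasi-likelihood), and scores and log2 stop ratios with limma 3.58.1 with trend, in R 4.3.3. All 12 libraries made at 500 µM shared each fit. Tests were two-sided, adjusted after Benjamini and Hochberg, with a threshold of 0.05. Transcripts, windows and termini needed at least 10 reads in at least 3 libraries. Scores needed a flanking median of at least 15 in all 12 libraries and a value above 0 in at least 3. Stop ratios needed a coverage of at least 50 in all 12. DESeq2 1.42.0 was an alternative. On simulated data the tests recovered the changes put in, which were at least 3-fold or a full loss of protection. Smaller changes were not simulated. The stop ratio test with 1 added also made false calls above its nominal rate, at positions with few starting reads. Transcripts were simulated at a single spread, so how TMM over 37 transcripts behaves at a larger spread was not tested. The stop ratio test was kept as designed. Reads carry no molecular identifiers, so errors from counting are lower bounds.

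The members and lists were chosen with earlier results of these data known. Named were the mt-rRNAs, called transcripts, the example with most reads of each list, 10 modified residues, called positions, and the 4 tRNAs with the highest parental share at residue 9 among those with A or G. The 16S to 12S ratio and any other position or transcript named were chosen after their values were seen. MT-ATP8 and MT-ATP6 overlap by 46 nucleotides and MT-ND4L and MT-ND4 by 7, each pair on a shared bicistronic mRNA, so their reads cannot be fully separated.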

Additional observations from a re-analysis of the deposited data

How the results depend on the processing

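No transcript was called under 7 of 9 alternatives; the 6 libraries alone gave 1 call (MT-TD) and the same 6 thinned to 250693 reads gave 3 (MT-RNR2, MT-TD and MT-TR). The log2 difference of MT-RNR2, -0.16 with TMM, turned to 0.086 with total reads, 0.011 with the 6 libraries alone and 0.17 with those thinned. Cleavage protection gave 0 calls with a flanking median of 50 and 0 with the 2 µM libraries, in both of which G2815 was not among the tested positions, 3 with edgeR on 3′ ends and 2 with the 6 libraries alone. G2815 was called under all 7 alternatives that tested it and without any 1 replicate (difference -0.605 to -0.498, adjusted p by limma 0.00213 to 0.0457). The stop ratio gave 7 calls with 0.1 added, 0 with a coverage of 20, 2 with a coverage of 200, 2 on the linear scale, 6 with edgeR, 0 with the 6 libraries alone, 0 with the replicate block and 0 without any 1 replicate. The stop ratio of G2815 passed the threshold with a coverage of 200 (2.21), with at least 10 starting reads (2.21, chosen after seeing the data), on the linear scale (0.0049 as a fraction) and with edgeR (2.19). It did not pass under the other 4 alternatives (adjusted p 0.0625 to 0.297) or without any 1 replicate (2.09 to 2.42, adjusted p 0.123 to 0.363). Windows and termini gave 0 calls under every alternative. The fragment length over all transcripts reversed in the 2 µM libraries (-0.62 nucleotides) and with the mt-rRNAs left out (-1.03), and was 5.51 to 13.8 without 1 replicate. The causes were not tested. Same-numbered replicates correlated at 0.303, 0.175 and -0.301, which does not show whether the numbers pair the samples. The replicate block gave 0 calls by transcript, 1 for cleavage protection (G2815, adjusted p by limma 0.00261), 0 windows and 0 termini.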

Other observations

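Some positions were called only under another setting, and all of those named here were chosen after their values were seen. With edgeR on 3′ ends, A1321 of the 12S mt-rRNA had 63, 105 and 90 ends in MRM1 KO, against 381, 321 and 244 in parental libraries (log2 difference against the flanking mean -0.61, adjusted p by edgeR 0.0197). G1336 had 136, 136 and 102 ends in MRM1 KO, against 551, 392 and 323 in parental libraries (-0.64, adjusted p by edgeR 0.0137). With edgeR on starting reads, A1622 in MT-TV, the valine tRNA between the mt-rRNAs, had 62, 52 and 29 of 5473, 6111 and 2683 in MRM1 KO, against 161, 123 and 99 of 8066, 5010 and 4813 in parental libraries (-1.09, adjusted p by edgeR 0.0135). G4408 in MT-TM, the methionine tRNA, had 3, 5 and 1 of 1339, 1389 and 910 in MRM1 KO, against 23, 21 and 23 of 1679, 1648 and 2146 in parental libraries (-2.28, adjusted p by edgeR 0.0175). In the same tRNAs G4407 (-1.35), A1603 (-1.03) and A1621 (-1.33) were called as well, each with an adjusted p by edgeR of 0.0175. With 0.1 added in place of 1, limma called A15124 in MT-CYB, C5061 and A5289 in MT-ND2, A11481 in MT-ND4, U13412 in MT-ND5 and U14347 in MT-ND6, each with 0 starting reads in every MRM1 KO library and 1 to 8 in the parental libraries (adjusted p by limma 0.0416 to 0.0422). With the 6 libraries alone, limma called A1438 of the 12S mt-rRNA, which had 1, 4 and 1 3′ ends in MRM1 KO, against 18, 15 and 10 in parental libraries (score difference 0.18, adjusted p by limma 0.0355).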
